A study of Mus musculus with 13 samples.

Results

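Macrophages and other immune cells make up a small part of the RNA of an enamel organ, the epithelial organ that deposits enamel on the growing incisor. Their level was followed here through 33 marker genes, taken by symbol from the 48709 genes of the deposited count table. The markers cover leukocytes as a whole, macrophages and monocytes, antigen presentation by MHC class II, T and natural killer cells, B cells, neutrophils and mast cells. Mice were 11 days old, and the organs were dissected from their lower incisors. A group of 5 libraries, called Het, came from Tgfbr2-G357W/+ mice, which carry 1 allele of the TGF-beta receptor II gene with the substitution G357W and model Loeys-Dietz syndrome type II. The other 8 libraries, called WT, came from littermates with both Tgfbr2 alleles wild type. The labels name no promoter or Cre that would limit the substitution to 1 cell type, and no treatment of either group. Total RNA of the whole dissected organ was sequenced in bulk, so in the values below fewer cells of a type and less RNA per cell cannot be told apart.

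Macrophages are phagocytes that settle in tissues from embryonic precursors and from blood monocytes, and they clear dying cells and present antigen. Their surface receptors signal through small adaptor proteins such as Tyrobp and the gamma chain Fcer1g, and the transcription factor PU.1, encoded by Spi1, drives much of the myeloid programme. In and around teeth they are found in the pulp and in the vascular connective tissue, while the enamel organ itself consists mostly of ameloblasts and the epithelium that supports them. TGF-beta is a known regulator of leukocyte recruitment and of macrophage and mast cell states.

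Each library held between 18852382 and 26508410 counts assigned to genes. The column names of the count table give each library a number before a hyphen, here called its prefix, and a number after it. What the prefix stands for is not stated in the labels or files. Prefix 1 held 1 Het and 3 WT libraries, prefix 4 held 2 and 3, and prefix 5 held 2 and 2. The labelled dental epithelium was checked through its own genes: 12 ameloblast and epithelial genes summed to between 202000 and 344000 counts per 1e6 counts (CPM). Endothelial genes summed to 139 to 238 CPM, mesenchymal genes to 4480 to 12000, osteoclast genes to 149 to 416, red cell genes to 188 to 371, skeletal muscle genes to 11.2 to 167 and melanocyte genes to 41.4 to 99.1. None of these lists held a gene that differed between Het and WT. The melanocyte sum was mostly Mitf, with 763 to 1991 counts a library, and Dct had 129 to 295. Tyrp1, Tyr and Mlana had at most 8, 3 and 8 counts, so that sum is a weak measure of melanocytes. Library Het 5-5 stood apart for the immune markers: it had the highest level of 15 of the 30 markers that passed the filter on low counts (50%), against 10.1% of all genes tested. Het 5-6, of the same prefix and genotype, had the lowest level of 6 of the 30 (20%), against 9.41% of all genes. For some markers, among them Cpa3, Cd52, Lyz2 and S100a8, the fold change without Het 5-5 is given as well.

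The myeloid adaptor and lysozyme genes were the most abundant of the markers per length. In RPKM, which is CPM per kilobase of exon, Tyrobp, the adaptor DAP12, averaged 16.0 ± 5.07 in Het and 17.7 ± 4.90 in WT (SD, n = 5 and 8, as for every mean of these groups below). Lyz2, the lysozyme of macrophages and neutrophils, stood at 16.9 ± 9.97 and 11.7 ± 3.87 RPKM, and Fcer1g at 12.8 ± 3.22 and 13.5 ± 1.94 RPKM. These neighbours in the order do not differ beyond their spread. Lyz2 has a near-identical copy, Lyz1, so its reads may be shared with that gene. Cd74, the invariant chain of MHC class II, followed at 9.48 ± 1.40 and 8.79 ± 2.16 RPKM. The class II chains H2-Aa, H2-Eb1 and H2-Ab1 averaged 4.33, 4.02 and 3.45 RPKM over the 13 libraries, and the neutrophil gene S100a9 averaged 4.15.

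Further down, the macrophage surface genes were low. Adgre1, which encodes the macrophage antigen F4/80, averaged 1.73 RPKM, the mannose receptor Mrc1 1.27, and the fractalkine receptor Cx3cr1 0.646. Ptprc, the pan-leukocyte antigen CD45, averaged 0.273 RPKM and the haemoglobin scavenger receptor Cd163 0.159. The lowest of all were the natural killer gene Nkg7 at 0.142 RPKM and the T cell receptor chains Cd3g at 0.0143 and Cd3e at 0.00162. The summed level of all markers but Kit was 169 ± 44.3 CPM in Het and 156 ± 16.9 CPM in WT. Het 5-5 reached 245 CPM, and the other 12 libraries lay between 131 and 189; the 4 other Het libraries averaged 150.0 ± 14.2 CPM. The ranges of both groups overlapped, and no test was made of this sum.

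**Figure D1:**
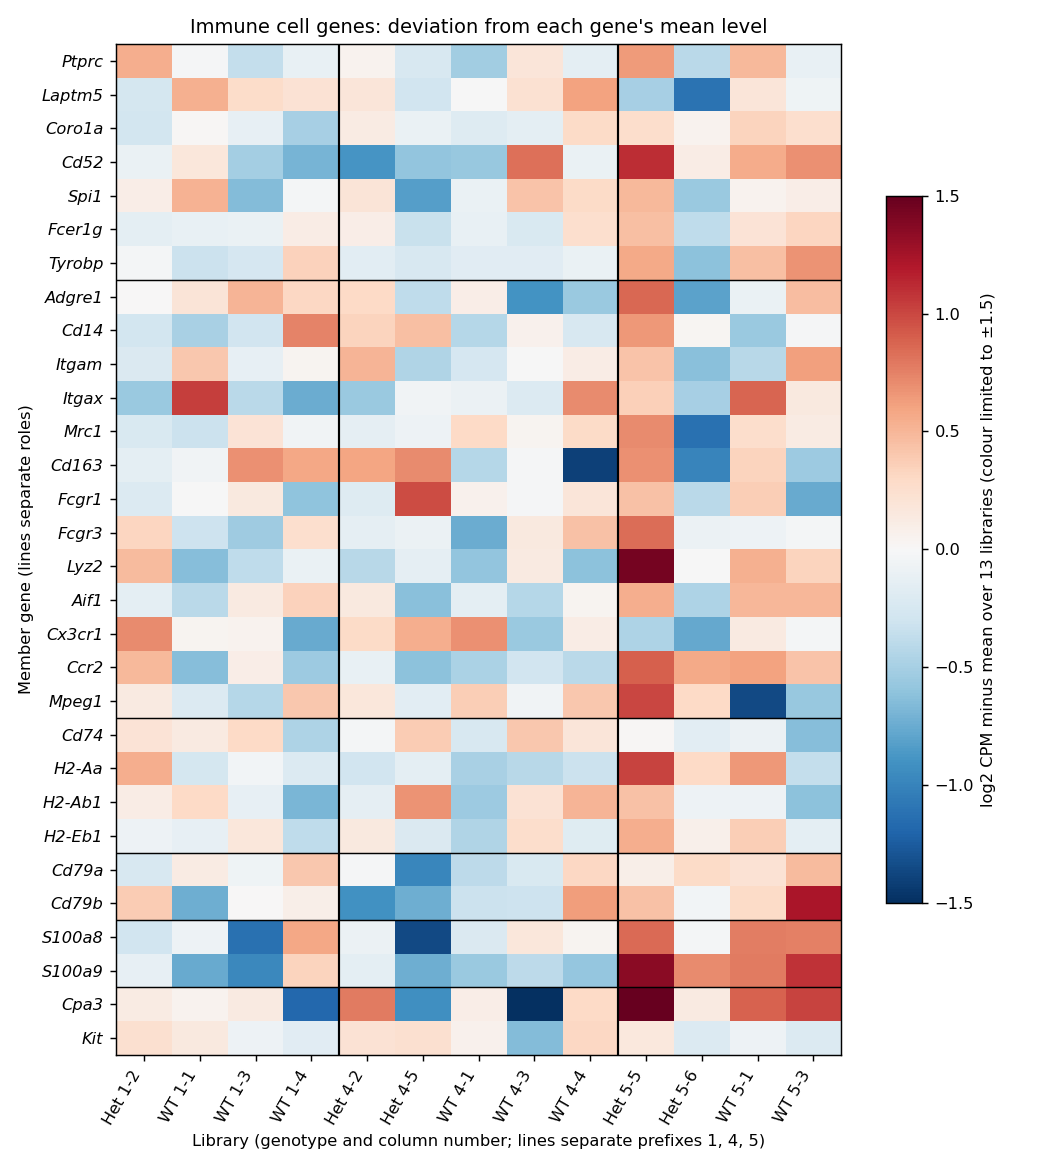
Level of each marker (rows, ordered by role) in each of the 13 libraries, drawn as the difference in log2 CPM from the marker's mean over libraries. Columns are grouped by library prefix, with Het before WT inside each prefix. The column of Het 5-5 holds the highest value for 15 of the 30 markers that passed the filter; no row separates the Het columns from the WT columns.

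To ask whether the Tgfbr2 substitution went with a different immune cell content, Het and WT libraries were compared across all 16328 genes past a filter on low counts. Of the 30 markers that passed it, 0 differed between Het and WT at an adjusted p under 0.05 (edgeR's quasi-likelihood test with Benjamini-Hochberg adjustment, as for every adjusted p of a gene below). Over all genes the share called was 0.0857%, 14 genes. At an unadjusted p under 0.05 the markers gave 2 of 30 (6.67%), Laptm5 and H2-Aa, which is near the 6.9% of all genes. DESeq2 and limma-voom with sample weights called 0 markers as well. Ranges of Het and WT overlapped for all 30, against 0.49% of all genes with ranges apart. The log2 fold change of Het over WT was above 0 for 18 of 30 markers (60%), against 49.1% of all genes, and for 14 of 30 without Het 5-5. Its median was 0.13, against -0.004 for all genes, and -0.02 without Het 5-5.

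The precision behind these values was lower than for a typical gene. The standard error of the log2 fold change had a median of 0.25 over the markers and of 0.17 over all genes tested. The SD of log2 CPM across the 13 libraries had a median of 0.45 for the markers and 0.30 for all genes. It was smallest for Coro1a, an actin regulator of leukocytes, at 0.25, and for Fcer1g at 0.26. It was largest for the mast cell protease Cpa3, at 1.22.

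**Figure D2:**
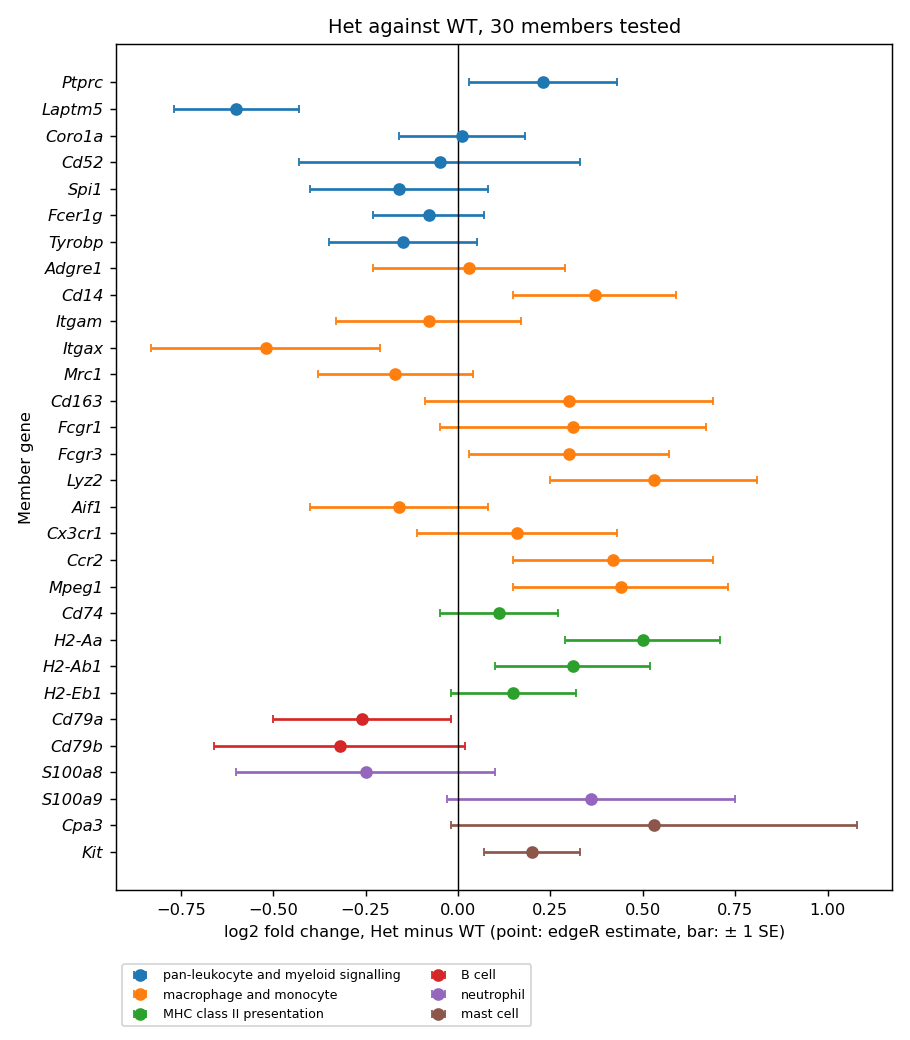
Log2 fold change of Het over WT for the 30 markers past the filter (points, with the standard error of the edgeR fit as bars), grouped by role. Values run from -0.60 for Laptm5 to 0.53 for Lyz2 and Cpa3, and none passed an adjusted p of 0.05.

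Among the pan-leukocyte and myeloid signalling genes, 0 of 7 passed the test, and 5 of the 7 fold changes were below 0. Laptm5, a lysosomal membrane protein of blood cells that dampens antigen receptor signalling, lies on chromosome 4 (130913125 to 130936141, GRCm38). It had 202, 303, 261, 194 and 118 counts in Het 1-2, 4-2, 4-5, 5-5 and 5-6. In WT 1-1, 1-3, 1-4, 4-1, 4-3, 4-4, 5-1 and 5-3, the order used for every gene below, it had 302, 343, 311, 260, 272, 419, 328 and 252 counts. Scaled to depth, 4 of the 5 Het libraries were below every WT library and Het 5-6 was the lowest, while Het 4-2 lay within the WT range, so the ranges overlapped. The log2 CPM was 3.11 ± 0.47 in Het and 3.75 ± 0.23 in WT, and the log2 fold change of -0.60 ± 0.17 (SE) had an adjusted p of 0.32 by edgeR. Compared inside 1 prefix at a time, Het minus WT came to -0.60 for prefix 1, -0.33 for prefix 4 and -0.86 for prefix 5. Over the alternatives the fold change of Laptm5 stayed between -0.82 and -0.42, and its lowest adjusted p was 0.10, by DESeq2. Osteoclasts, which are relatives of macrophages, share some of these genes. A list of 10 osteoclast genes had 9 fold changes below 0, while 49.1% of all genes were above 0. The list summed to 149 to 349 CPM in Het and 216 to 416 in WT, with its lowest sum also in Het 5-6. Its highest Het sum, 349 CPM, was in Het 5-5, where Laptm5 was low at 3.01 log2 CPM. The part of the osteoclast genes in the Laptm5 values was not tested.

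Tyrobp did not follow Laptm5. It had 231, 234, 264, 395 and 162 counts in Het and 161, 231, 332, 227, 201, 252, 388 and 409 in WT. Both prefix 5 WT libraries and Het 5-5 were high and Het 5-6 was low, with wide overlap. Its log2 fold change was -0.15 ± 0.20 (edgeR adjusted p = 0.905). Fcer1g stood at -0.08 ± 0.15, Spi1 at -0.16 ± 0.24, Coro1a at 0.01 ± 0.17 and the small surface glycoprotein Cd52 at -0.05 ± 0.38. Without Het 5-5, Cd52 was at -0.5 ± 0.38 (edgeR adjusted p = 0.909). Ptprc had 83 to 185 counts in Het and 78 to 175 in WT, and its log2 fold change was 0.23 ± 0.20 (edgeR adjusted p = 0.85). Cd52 and Coro1a share exon bases with genes on the other strand, as does Cx3cr1, and the library kit did not keep strand, so some of their reads may belong to those genes.

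Among the 13 macrophage and monocyte genes 0 passed the test, with 9 fold changes above 0 and 4 below. Lyz2 had 493, 292, 425, 1088 and 372 counts in Het and 194, 319, 366, 253, 373, 263, 614 and 485 in WT. Het 5-5 exceeded every other library, and the remaining 4 Het libraries lay within the WT range. The log2 CPM was 4.32 ± 0.73 in Het and 3.88 ± 0.46 in WT, a log2 fold change of 0.53 ± 0.28 (edgeR adjusted p = 0.757). Without Het 5-5 the Lyz2 fold change was 0.12.

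Cd14, the co-receptor for bacterial lipopolysaccharide, had 92, 155, 201, 198 and 120 counts in Het and 68, 106, 208, 89, 112, 107, 90 and 120 in WT. Of the 5 Het libraries, 4 were above the WT median, while the highest value was in WT 1-4. Its log2 fold change was 0.37 ± 0.22 (edgeR adjusted p = 0.769), and Het minus WT inside prefixes 1, 4 and 5 came to -0.26, 0.59 and 0.62. The chemokine receptor of blood monocytes, Ccr2, stood at 0.42 ± 0.27, and Mpeg1, which encodes the pore-forming protein perforin-2, at 0.44 ± 0.29. Without Het 5-5 they stood at 0.25 ± 0.28 for Ccr2 and 0.21 ± 0.30 for Mpeg1. Adgre1 stood at 0.03 ± 0.26, Cx3cr1 at 0.16 ± 0.27, Mrc1 at -0.17 ± 0.21 and the actin-binding protein gene Aif1 at -0.16 ± 0.24. Without Het 5-5, Adgre1 was at -0.24 ± 0.26 and Mrc1 at -0.45 ± 0.19 (edgeR adjusted p = 0.71).

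The receptors for immunoglobulin G, Fcgr1 and Fcgr3, stood at 0.31 ± 0.36 and 0.30 ± 0.27, and Cd163 at 0.30 ± 0.39. Itgax, which encodes the CD11c integrin of dendritic cells, had the lowest fold change of the group, -0.52 ± 0.31 (edgeR adjusted p = 0.775). It had 29 to 64 counts in Het and 28 to 97 in WT. Itgam, the CD11b integrin, stood at -0.08 ± 0.25; it shares 3450 of its 5024 exon bases with the gene model Gm49368, so its value is uncertain. The summed level of the 13 genes ran from 43.3 to 101 CPM in Het and from 44.1 to 62.2 in WT, with the highest sum in Het 5-5 and the lowest in Het 5-6.

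MHC class II molecules present peptides to helper T cells, and the chains are made under the factor Ciita with proteins that bind the X and Y boxes of their promoters. The RefSeq sequence (GRCm38.p6) of the 250 bases before the start is printed for the class II markers with a Y box in this window. H2-Ab1 and Cd74 had no such match or no window, so the print does not show that the class II markers share it. The capitals mark the Y box CTGATTGG. H2-Aa is on the minus strand at chr17:34287824-34288073, with the Y box 51 to 44 bases before the start, and H2-Eb1 on the plus strand at chr17:34305617-34305866, with it 62 to 55 bases before.
H2-Aa: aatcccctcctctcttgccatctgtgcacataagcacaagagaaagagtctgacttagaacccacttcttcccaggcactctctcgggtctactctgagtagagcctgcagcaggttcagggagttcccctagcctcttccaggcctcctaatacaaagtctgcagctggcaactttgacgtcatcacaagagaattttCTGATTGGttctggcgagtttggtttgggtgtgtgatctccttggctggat
H2-Eb1: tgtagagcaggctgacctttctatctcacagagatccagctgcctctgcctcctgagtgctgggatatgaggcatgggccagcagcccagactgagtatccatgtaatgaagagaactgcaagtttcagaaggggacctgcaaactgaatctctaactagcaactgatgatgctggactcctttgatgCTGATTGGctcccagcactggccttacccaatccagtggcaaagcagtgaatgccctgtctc

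On either strand, these letters were found in 4.43% of 27025 genes' windows and in 2 of the 25 markers with a window (8.0%); this match is a description, chosen after the data were seen.

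All 4 class II genes had fold changes above 0, and 0 passed the test. H2-Aa, the class II alpha chain, had 491, 303, 401, 771 and 437 counts in Het and 240, 381, 321, 258, 241, 306, 629 and 283 in WT. All 5 Het libraries were above the WT median, but WT 5-1 was above 4 of them. The log2 CPM was 4.26 ± 0.53 in Het and 3.79 ± 0.36 in WT, a log2 fold change of 0.50 ± 0.21 (edgeR adjusted p = 0.666). Without Het 5-5 the log2 fold change was 0.28. Het minus WT inside prefixes 1, 4 and 5 came to 0.72, 0.19 and 0.52.

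The partner beta chain H2-Ab1 stood at 0.31 ± 0.21 (edgeR adjusted p = 0.791) and H2-Eb1, a second beta chain, at 0.15 ± 0.17 (edgeR adjusted p = 0.88). Cd74 had 371, 345, 548, 368 and 305 counts in Het and 302, 460, 257, 292, 407, 414, 358 and 223 in WT. Scaled to depth, its highest libraries were WT 4-3, Het 4-5 and WT 1-3, while Het 5-5 and WT 5-1 were the highest for H2-Aa, and the groups overlapped throughout. Its log2 fold change was 0.11 ± 0.16 (edgeR adjusted p = 0.909).

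Lymphocyte markers were few. Cd3e, a signalling chain of the T cell receptor, had 2 counts in WT 4-1 and 0 in the other 12 libraries, where a count of 0 allows up to 0.106 to 0.163 CPM depending on the library. Cd3g, its partner chain, had 14 counts in all, 0 to 3 in a library. Nkg7, a granule protein of cytotoxic cells, had 6, 3, 1, 5 and 7 counts in Het and 4, 5, 0, 0, 0, 1, 6 and 1 in WT. These 3 genes did not pass the filter, and at this depth a difference between Het and WT in any of the 3 was not detectable. With no filter on low counts, their log2 fold changes were -1.60 ± 1.03 for Cd3e, 0.83 ± 1.02 for Cd3g and 1.01 ± 0.85 for Nkg7, with edgeR adjusted p of 0.643, 0.799 and 0.725.

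The B cell receptor partners Cd79a and Cd79b were low but present in all libraries. Cd79a had 34, 44, 26, 49 and 53 counts in Het and 38, 45, 60, 33, 33, 58, 57 and 62 in WT. Only 1 Het library was above the WT median. Its log2 fold change was -0.26 ± 0.24 (edgeR adjusted p = 0.852), and that of Cd79b was -0.32 ± 0.34 (edgeR adjusted p = 0.874).

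S100a8 and S100a9 encode the paired calcium-binding proteins that form calprotectin, the main cytosolic protein of neutrophils, and lie near each other on chromosome 3. Their 250 bases before the start are shown as a description. Why both genes moved together across the libraries (below) was not tested. The capitals mark the PU.1 core GAGGAAG, on its reverse strand CTTCCTC, for S100a8 (plus strand, chr3:90668821-90669070, 171 to 165 bases before the start). For S100a9 (minus strand, chr3:90695722-90695971) they mark the C/EBP core TTGCNNAA, 236 to 229 bases before the start; C/EBP factors are regulators of granulocyte genes.
S100a8: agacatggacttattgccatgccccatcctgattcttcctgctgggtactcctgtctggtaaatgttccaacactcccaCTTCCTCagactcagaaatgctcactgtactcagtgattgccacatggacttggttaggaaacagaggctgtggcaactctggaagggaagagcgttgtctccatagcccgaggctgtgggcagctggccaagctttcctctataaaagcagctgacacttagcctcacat
S100a9: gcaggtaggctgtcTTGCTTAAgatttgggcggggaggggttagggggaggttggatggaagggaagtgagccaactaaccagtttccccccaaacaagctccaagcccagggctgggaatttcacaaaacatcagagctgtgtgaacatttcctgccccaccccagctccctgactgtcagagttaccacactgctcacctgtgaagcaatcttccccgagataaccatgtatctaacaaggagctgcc

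On either strand, the PU.1 core was found in 12% of the 27025 windows and in 7 of the 25 markers' windows (28%), namely of Laptm5, Itgam, Mrc1, Fcgr1, Fcgr3, S100a8 and Kit. The C/EBP core was found in 10.8% of windows and in 2 of the 25 (8.0%), Fcgr3 and S100a9. S100a8 had no C/EBP core and S100a9 no PU.1 core in its window. Both motifs were chosen after the data were seen, and a match is not a shown binding site.

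S100a9 had 37, 40, 31, 120 and 71 counts in Het and 20, 23, 57, 29, 29, 30, 84 and 95 in WT. The high libraries were Het 5-5, Het 5-6, WT 5-1 and WT 5-3, all 4 libraries of prefix 5, and in each genotype the other libraries lay lower. Between genotypes the log2 CPM was 1.18 ± 0.82 in Het and 0.84 ± 0.76 in WT. The log2 fold change was 0.36 ± 0.39 (edgeR adjusted p = 0.881), and -0.03 without Het 5-5. S100a8 stood at -0.25 ± 0.35 (edgeR adjusted p = 0.909), and at -0.6 ± 0.35 without Het 5-5 (edgeR adjusted p = 0.895).

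The mast cell markers behaved unlike each other. Kit, the receptor for stem cell factor, is made by mast cells and also by melanocytes and other cells. It had 802, 870, 1056, 856 and 622 counts in Het and 645, 756, 665, 766, 412, 959, 770 and 639 in WT. Het 5-6 and WT 4-3 were the lowest of their groups. The log2 CPM was 5.11 ± 0.19 in Het and 4.90 ± 0.29 in WT, a log2 fold change of 0.20 ± 0.13 (edgeR adjusted p = 0.792).

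Cpa3, carboxypeptidase A of mast cell granules, had 16, 29, 9, 61 and 17 counts in Het and 13, 19, 6, 17, 0, 21, 34 and 34 in WT. WT 4-3 thus had 412 counts of Kit and 0 of Cpa3. Per length, Kit averaged 3.59 RPKM and Cpa3 0.589 RPKM over the libraries. The log2 fold change of Cpa3 was 0.53 ± 0.55 (edgeR adjusted p = 0.874), the least precise of the 30, and -0.01 ± 0.58 without Het 5-5. The source of the Kit counts among mast cells, melanocytes and other cells was not tested.

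**Figure D3:**
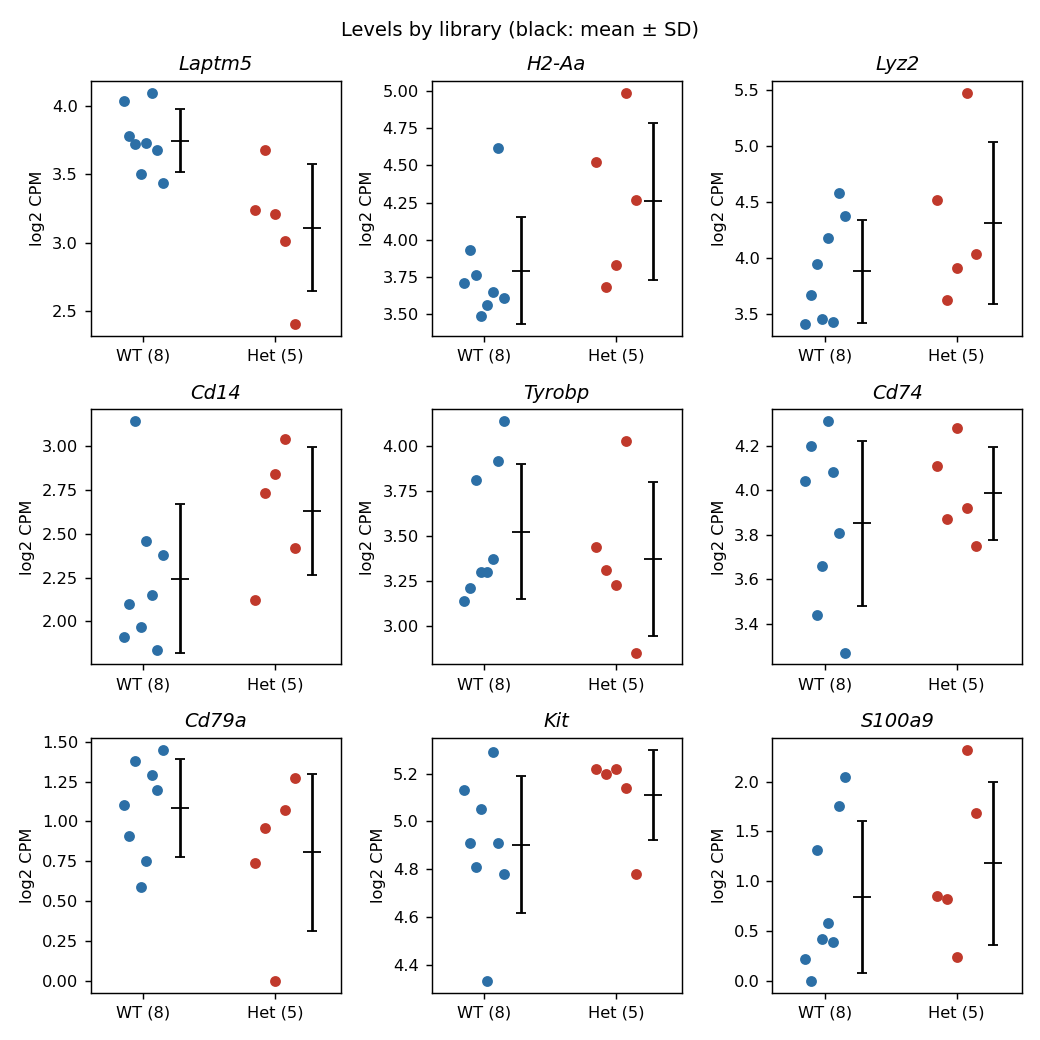
Log2 CPM of 9 markers in the 5 Het and 8 WT libraries (points), with the group mean and SD. In every panel the ranges of Het and WT overlap; for Laptm5, 4 of the 5 Het points lie below all WT points.

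The library prefix was tested across all genes, not only for S100a9, with genotype in the model. The S100a9 pattern described above and this test use the same counts, so neither is support for the other. Of the 30 markers, 3 differed among prefixes (10%), against 6.08% of all 16328 genes; at an unadjusted p under 0.05 it was 8 of 30 (26.7%), against 23.0% of all genes. These shares are near the background and are no result about the markers as a set. The markers called were S100a9, Ccr2 and H2-Aa. S100a9 averaged 0.60 ± 0.60 log2 CPM in the 4 libraries of prefix 1, 0.49 ± 0.22 in the 5 of prefix 4 and 1.95 ± 0.30 in the 4 of prefix 5. The edgeR adjusted p for any difference among the 3 prefixes was 0.0095, and it passed in all 13 fits that left out a library, from 0.00582 to 0.0424. The fitted log2 difference of prefix 5 from prefix 1 was 1.29, a 2.44-fold higher level. With prefix 4 left out, which leaves only prefixes 1 and 5, the difference did not pass (edgeR adjusted p = 0.327), and with prefix 1 left out it did (edgeR adjusted p = 0.00452).

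Ccr2, which brings monocytes from blood into tissue, averaged 1.44 ± 0.54, 1.21 ± 0.19 and 2.21 ± 0.19 log2 CPM in prefixes 1, 4 and 5 (edgeR adjusted p = 0.0329). Its call was lost without Het 4-2, Het 4-5, Het 5-5, WT 5-1 or WT 5-3, with edgeR adjusted p up to 0.118. H2-Aa averaged 3.98 ± 0.37, 3.64 ± 0.13 and 4.37 ± 0.59 log2 CPM (edgeR adjusted p = 0.0487), and only 3 of the 13 fits kept that call, those without Het 5-6, WT 1-1 or WT 5-3. The edgeR adjusted p of H2-Aa over these fits ran from 0.0224 to 0.164. S100a8 had a prefix difference in the same direction as S100a9, 0.87 on the log2 scale, that did not pass (edgeR adjusted p = 0.164). With prefix 4 left out, Ccr2 and H2-Aa did not pass either (edgeR adjusted p = 0.429 and 0.608). Over the markers, 21 of 30 had a higher fitted level in prefix 5 than in prefix 1, against 50.7% of all genes, with a median difference of 0.27 against 0.00. Het 5-5, of prefix 5, held the highest level of 15 of the 30 markers, and Het 5-6, of the same prefix, the lowest of 6. This count and median without Het 5-5 are not given. Between prefixes 4 and 1 the median was -0.02.

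Over 10 lists of other immune genes, 7 of the 91 genes past the filter differed among prefixes, near the 6.08% of all genes. The list of other neutrophil genes was 1 of these. Of its 12 genes, 10 passed the filter, and 4 of the 10 differed among prefixes, against 6.08% of all genes. All 10 had a higher fitted level in prefix 5 than in prefix 1, against 50.7% of all genes, with a median log2 difference of 0.77. The other 6 genes did not pass, among them Mmp9, a matrix protease of neutrophils and other cells, at 0.08, and the receptor gene Csf3r at 0.53. Elane, the neutrophil elastase gene, averaged 2.23 in prefix 1, 1.32 in prefix 4 and 2.84 in prefix 5 (log2 CPM; edgeR adjusted p = 0.0228). Ltf, the gene of the granule protein lactoferrin, averaged 0.53, 0.13 and 1.69 (edgeR adjusted p = 0.0306). Het 5-5, of prefix 5, held the highest value of both, 3.24 for Elane and 2.46 for Ltf. No fit of the 10 genes without Het 5-5 is given. The other called genes were the granule genes Mpo and Camp, named after their values were seen, with edgeR adjusted p of 0.0322 and 0.0483. Between Het and WT, 0 of the 10 differed.

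Markers of other cells were summed by prefix as well. Ameloblast genes summed to 233000 to 313000 CPM in prefix 1, 202000 to 286000 in prefix 4 and 307000 to 344000 in prefix 5, with 0 of 12 genes called for the prefix. Mesenchymal genes summed to 6380 to 8790, 6830 to 12000 and 4480 to 6370 CPM, and 4 of their 10 genes differed among prefixes, as did 4 of 10 endothelial genes, against 6.08% of all genes. Skeletal muscle genes had 1 of 9 called, osteoclast genes 0 of 10 and melanocyte genes 0 of 4. Red cell genes, a measure of blood, summed to 235 to 302, 227 to 351 and 188 to 371 CPM, with 0 of 9 called. The part of these cells, or of whatever the prefix stands for, in the neutrophil values was not tested.

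**Figure D4:**
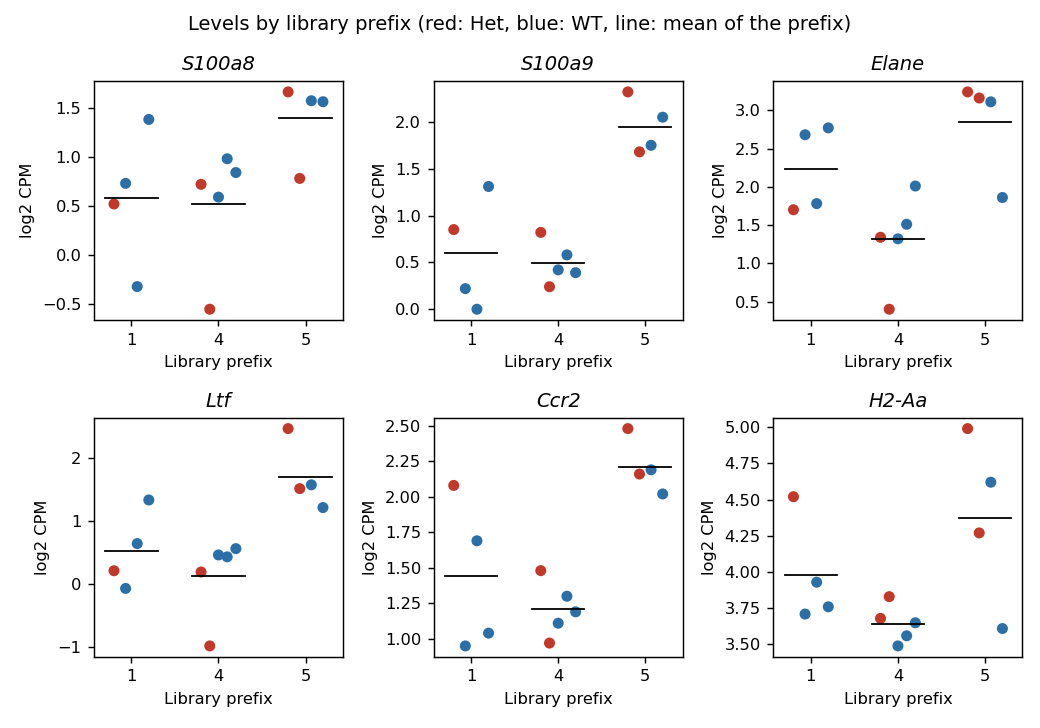
Log2 CPM of S100a8, S100a9, the neutrophil genes Elane and Ltf, Ccr2 and H2-Aa by library prefix (1, 4 and 5), 1 point per library coloured by genotype, with a line at each prefix's mean. For S100a9 the 4 libraries of prefix 5 average 1.95, above 0.60 in prefix 1 and 0.49 in prefix 4.

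Whether markers varied together was examined over the 13 libraries for 14 pairs, of the same cell type or complex or, as with Adgre1 and S100a8, of different cell types. These are correlations of log2 CPM, which share each library's depth, with permutation p from 100000 resamples adjusted over the 14 pairs. Fcer1g and Tyrobp, the paired adaptors, had Pearson's r of 0.83 (permutation p = 0.00033, adjusted p = 0.00462) and Spearman's rho of 0.80 (permutation p = 0.00156, adjusted p = 0.0218). The r was 0.71 without the libraries farthest from the median of Fcer1g, Het 5-5 and WT 5-3, and 0.80 after centring on the prefix. S100a8 and S100a9 had r of 0.79 (permutation p = 0.00084, adjusted p = 0.00588) and rho of 0.76 (permutation p = 0.00382, adjusted p = 0.0267). The r was again 0.79 without Het 4-5 and WT 1-3, and 0.70 after centring on the prefix. These were the 2 pairs that passed, and with 4 or 5 libraries a prefix no r was computed within one.

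The other pairs did not pass. H2-Aa and H2-Eb1 had r of 0.65 (permutation p = 0.0161, adjusted p = 0.0753) and rho of 0.53 (permutation p = 0.0659, adjusted p = 0.231); r was 0.22 without Het 5-5 and WT 5-1, so the relation rests on those libraries. That pair passed when Het 1-2 or WT 4-3 was left out, with r of 0.72 and 0.78 (adjusted permutation p = 0.0271 and 0.0119). Cpa3 and Kit had r of 0.59 (permutation p = 0.0416, adjusted p = 0.117) but rho of 0.14 (permutation p = 0.647, adjusted p = 0.877), and r was -0.06 without Het 5-5 and WT 4-3. Centred on the prefix, the r of Cpa3 and Kit was 0.87. That value was not tested and includes WT 4-3, which had 0 counts of Cpa3 and the lowest level of both genes. Cd79a and Cd79b had r of 0.58 (permutation p = 0.0399, adjusted p = 0.117) and rho of 0.57 (permutation p = 0.0474, adjusted p = 0.221). The macrophage receptors Adgre1 and Mrc1 had r of 0.51 (permutation p = 0.0716, adjusted p = 0.167) and rho of 0.30 (permutation p = 0.323, adjusted p = 0.877). The remaining 8 pairs had r between -0.01, for Ptprc and Laptm5, and 0.36, for H2-Ab1 and H2-Eb1, with adjusted permutation p of 0.459 or higher. Of these, centring on the prefix moved r from 0.09 to 0.62 for Cd74 and H2-Aa and from 0.28 to 0.60 for H2-Aa and H2-Ab1; the centred values were not tested.

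**Figure D5:**
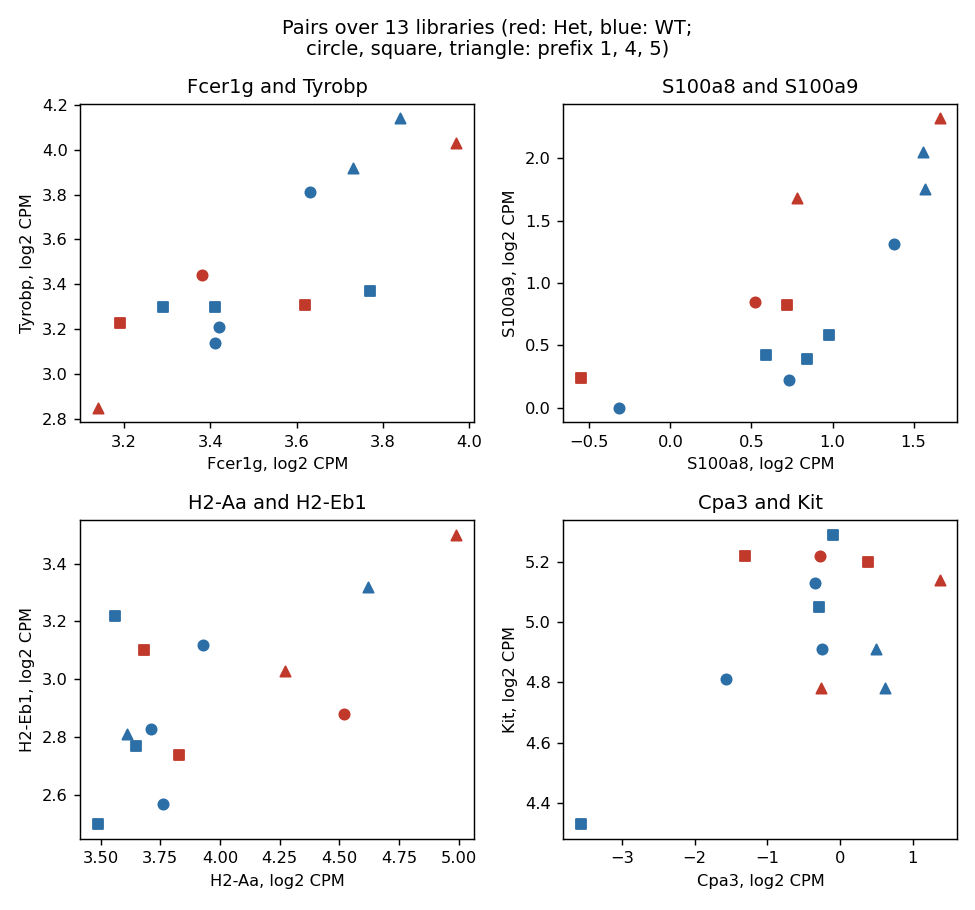
Log2 CPM of paired markers, 1 point per library, with Het and WT marked. Fcer1g with Tyrobp (r = 0.83) and S100a8 with S100a9 (r = 0.79) line up over the 13 libraries, while for Cpa3 with Kit (r = 0.59) the order of the libraries does not (rho = 0.14).

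Beyond the 33 markers, 10 lists of other immune genes held 138 genes, of which 91 passed the filter. Of these 91, 0 differed between Het and WT by edgeR, 5 had an unadjusted p under 0.05, against 6.9% of all genes, and 50 fold changes were above 0 and 41 below, against 49.1% of all genes above 0. Among 16 other pan-leukocyte genes the median log2 fold change was -0.01, and 1 of the 16 differed among prefixes, near the 6.08% of all genes. Among 17 other macrophage genes the median was 0.12. Csf1r, the receptor that macrophages need to survive, stood at 0.02 ± 0.17, and Ctss, the protease that trims Cd74, at 0.48 ± 0.27 (edgeR adjusted p = 0.762). Monocyte and dendritic cell genes were mostly below the filter, and the 4 that passed had a median of -0.14, with the dendritic factor Zbtb46 at -0.24 ± 0.14.

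Other class II pathway genes had a median of 0.01 over 7 genes. H2-DMb2, a chain of the complex that loads peptides, had 9, 8, 1, 9 and 6 counts in Het and 16, 15, 10, 20, 11, 20, 15 and 16 in WT. Scaled to depth, every Het library was below every WT library, by a narrow margin between Het 1-2 with 9 counts and WT 1-4 with 10. It was the 1 gene of the 91 with ranges apart, against 0.49% of all genes. Its log2 fold change of -1.24 ± 0.42 did not pass (edgeR adjusted p = 0.504). H2-DMb2 shares sequence with its neighbour copy H2-DMb1, which stood at 0.25 ± 0.16, so its counts are uncertain. MHC class I pathway genes had a median of -0.09 over 8 genes, with the peptide-loading protein gene Tapbp differing among prefixes (edgeR adjusted p = 0.00986).

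Other T and natural killer genes had a median of -0.02 over the 6 of 18 that passed. The surface protein gene Cd5 had the lowest fold change, -1.82 ± 0.51 (edgeR adjusted p = 0.289), on 1 to 26 counts a library. Other B cell genes had a median of 0.09 over 8, with the immunoglobulin light chain gene Igkc at -0.45 ± 0.14 (edgeR adjusted p = 0.42). Other mast cell genes had a median of 0.40 over 6, with the tryptase gene Tpsab1 at 0.53 ± 0.29 (edgeR adjusted p = 0.762). Other neutrophil genes had a median of 0.32 over 10, and leukocyte growth factors and chemokines one of -0.05 over 9.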

How the data were processed

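The counts per gene were made by the authors and taken as deposited. STAR 2.5.2a and the build GRCm38 are named per the submitters' processing notes, as are DESeq2, edgeR and limma without a role; no counter or annotation is named. Per the labels' protocols, libraries were unstranded and sequenced on 2 runs. The authors also deposited a filtered count table, with the same counts for 21223 features, and a normalised signal table that equals CPM on TMM-adjusted library sizes. Of 48733 features, 24 that name no gene (at most 0.000177% of a library) were left out.

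Each library was taken as 1 mouse, and p-values measure the spread between these libraries. The lowest chi-square per gene over the 78 pairs of libraries was 11.1, so none was a repeat of another. Counts were tested with edgeR 4.0.16 in R 4.3.3 (filterByExpr with a minimum count of 10, TMM, robust quasi-likelihood fit, genotype as the only term; common biological coefficient of variation 0.227). P-values were Benjamini-Hochberg adjusted over 16328 genes at a threshold of 0.05. Prefixes were tested with an F test in a model with genotype. Log2 CPM used a prior count of 2. RPKM used exon lengths of GENCODE gene models (GRCm38). DESeq2 1.42.0, limma 3.58.1, other scalings and filters, and leaving out libraries were alternatives. The statistics were tested on simulated data with the same dispersion for every gene. Detection was checked there only for changes larger than any fitted for the markers. Promoter sequences, from RefSeq (GRCm38.p6), matched 25 of the 33 markers by symbol. Column names gave group but no replicate number.

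The markers and the lists (10 of other immune genes, 7 of other cells) were chosen with earlier results of these data known. By a rule, values in every library were given for the most abundant marker per length and the marker of smallest p in each role, and for the 4 of smallest p overall. In each other immune list up to 2 genes past a threshold were named, otherwise the gene of smallest p. Other genes of these lists, Cpa3 and the promoter motifs were chosen after their values were seen. One gene that this rule named is not reported here.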

Additional observations from a re-analysis of the deposited data

Results flagged for a closer look

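Of 60 sets of values (30 markers in Het and in WT), 2 held a library far from the others by the gap at its end of the range; chance flags about 1 in 20 such sets. H2-Aa in WT 5-1 stood at 4.62 log2 CPM (629 counts), while the other 7 WT libraries lay between 3.49 and 3.93. Kit in Het 5-6 stood at 4.78 log2 CPM (622 counts), while the other 4 Het libraries lay between 5.14 and 5.22.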

How the results depend on the processing

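No marker differed between Het and WT under any of the 24 alternatives. Over all genes the count called was 14, and it became 27 with no filter, 25 with at least 1 CPM in 5 libraries, 74 with DESeq2, 27 with limma-voom and 30 with prefix as a term. It was 0 by edgeR without prefix 1 (731 genes at an unadjusted p under 0.05), 1 without prefix 4 and 2 without prefix 5, and 6 to 22 with each library left out, the lowest without Het 4-2 or Het 5-6 and the highest without WT 5-1. For the prefix, 3 markers were called, 5 with no filter, 5 with limma-voom, and 1 to 5 with each library left out. The count was 1, S100a9, without Het 4-2, Het 4-5, Het 5-5 or WT 5-1, and 5 without Het 5-6. Over all genes 992 were called for the prefix, 1866 with no filter, 2140 with DESeq2, 1917 with limma-voom, and 280 (without WT 5-1) to 1466 (without WT 1-1) with each library left out. The cause was not tested.

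With each library left out, the markers' median log2 fold change ran from -0.02 (without Het 5-5) to 0.18 and the S100a9 fold change from -0.03 to 0.60. Pearson's r ran from -0.38 to 0.20 for Ptprc and Laptm5, -0.23 to 0.18 for Adgre1 and Mpeg1, -0.04 to 0.56 for Mrc1 and Cd163, -0.07 to 0.21 for Cd74 and H2-Aa, and -0.10 to 0.38 for Adgre1 and H2-Aa; none of these passed. No paired analysis was possible because the columns of the count table carry no replicate number of the labels. Depth limits the lowest genes: 3 counts equal 0.106 to 0.163 CPM.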

Other observations

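Signals that recruit and feed leukocytes were measured in the same organs. Of 22 listed growth factors and chemokines, 9 passed the filter. Per length, Cxcl14, a chemokine made by epithelium, was the most abundant at 11.4 RPKM, followed by Kitl, the ligand of Kit, at 8.26 RPKM and Cxcl12 at 4.06 RPKM. The ligands of the macrophage receptor Csf1r were lower, Csf1 at 0.927 RPKM and Il34 at 0.438 RPKM, and Csf2 and Csf3 had 0 counts in every library. Cxcl14 differed among prefixes, with a log2 difference of prefix 5 from prefix 1 of -1.0 (edgeR adjusted p = 0.0103). None of the 9 differed between Het and WT; Kitl stood at 0.23 ± 0.13 (edgeR adjusted p = 0.763) and Csf1 at -0.05 ± 0.22 (edgeR adjusted p = 0.975).

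The constant regions of the T cell receptor were counted in every library although Cd3e was nearly absent: Trac had 35 to 71 counts, Trbc2 26 to 66 and the kinase gene Lck 76 to 156, while Cd8a had 0 throughout. The immunoglobulin heavy chain gene Ighm ranged from 230 to 8065 counts. The B cell list, which holds Ighm, summed to 406 CPM in Het 4-2 and to between 63.7 and 101 CPM in the other libraries, while the summed Cd79a and Cd79b level in Het 4-2 was 2.66 CPM. The log2 fold change of Ighm was 2.36 ± 0.82 (edgeR adjusted p = 0.585). This value includes the high count in Het 4-2, and no fit of Ighm without that library is given.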
